A study of Mus musculus with 108 samples.

Results

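9 genes of the egg's calcium signalling pathway were followed in single mouse oocytes that lack Exosc10 and in control oocytes. Members were chosen by symbol: 9 of the 55573 gene identifiers in the count files carry the symbols Itpr1, Camk2g, Calm2, Calm3, Stim1, Orai1, Atp2b1, Trpm7 and Cacna1h, and all 9 were found. Exosc10 encodes an RNA-degrading enzyme that works with the nuclear exosome. The labels describe its loss as an oocyte-specific knockout (cKO) without naming a promoter, strain or age. Oocytes were taken at GV (germinal vesicle, before meiosis resumes), at GV3h (3 hours of culture ex vivo, polyA libraries only) and at MII (eggs arrested in the second meiotic division, from the oviduct). PolyA libraries, made from RNA caught on oligo(dT) beads, came at GV from 15 cKO oocytes and 7 controls, at GV3h from 11 cKO oocytes and 8 controls, and at MII from 15 cKO eggs and 8 controls. RiboMinus libraries, primed with random hexamers and so not dependent on a poly(A) tail, came at GV from 7 cKO oocytes and 8 controls, and at MII from 4 cKO eggs and 3 controls. These are 86 libraries in 10 groups, from 23 females, with every oocyte of a female in 1 genotype. Each GV group came from 2 females in either library type, and each polyA GV3h and MII group from 3. RiboMinus MII eggs came from 2 cKO females and 1 control female. Female V888 gave 10 of the 15 polyA GV cKO oocytes, and V897 gave 11 of the 15 polyA MII cKO eggs.

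At fertilization the sperm delivers a phospholipase that makes IP3, and IP3 opens receptors on the endoplasmic reticulum so that calcium is released in repeated waves. Itpr1 encodes the main IP3 receptor of the mouse egg; calmodulin, encoded by Calm2 and Calm3 among others, binds the released calcium and switches on CaMKII, whose gamma form, from Camk2g, drives exit from meiosis. Channels in the plasma membrane (Trpm7, Cacna1h and the store-operated channel Orai1, which is opened by the store sensor Stim1) let calcium in, and the pump encoded by Atp2b1 moves it out.

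Calm2 and Calm3 are shown first, because they code for the same protein and counts can only separate them by sequence. The stretch below codes for the first calcium-binding loop (codons 21 to 32) and was read from the GENCODE M21 transcripts, build GRCm38 (mm10). Capitals mark the bases at which Calm2 and Calm3 differ.
Calm2, coding exon at chr17:87435873-87435908, minus strand: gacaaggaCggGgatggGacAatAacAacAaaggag
Calm3, coding exon at chr7:16917667-16917702, minus strand: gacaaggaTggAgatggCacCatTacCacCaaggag
All 7 of the capitals are at the last base of a codon. Over the whole coding sequence of 450 bases, Calm2 and Calm3 differed at 78 bases and their longest identical run was 17 bases, while the proteins of 149 residues differed at 0. Reads ambiguous between overlapping genes stand in a separate line of the counts, which was left out. How reads that map to several places were treated is not given in the sources used here. The split between calmodulin genes carries that uncertainty.

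The 3′ ends are shown because only tailed RNA enters the polyA libraries. In the last 100 bases of the annotated transcript, the sense strand was searched for the polyadenylation signal AATAAA and for 2 forms of the cytoplasmic polyadenylation element, TTTTAT and TTTTAAT. The signal was found in 7 of the 9 members, not in Orai1 or Trpm7, and in 64.8% of 19334 transcripts. TTTTAT was found in Atp2b1 alone among the 9, and in 13.9% of all transcripts, and TTTTAAT in 0 of the 9 and in 5.05%. The windows below, in mm10, are in 3′ untranslated exons, with the matched letters in capitals.
Calm2, chr17:87433432-87433461, minus strand: ttccaagttgtatatttgttttccAATAAA
Calm3, chr7:16915393-16915422, minus strand: gaaaaatatatatcaatgttttccAATAAA
Atp2b1, chr10:99026091-99026120, plus strand: aagtttatttgtcttaactcatttAATAAA
Atp2b1, chr10:99026057-99026086, plus strand: agccactgagccTTTTATtatttgtctatt
A match describes these letters only, not a working site.

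Counts on genes ranged from 4638718 to 8735914 per polyA library and from 12319658 to 62675760 per RiboMinus library. More genes were detected in every cKO library than in any control at polyA GV (20149 to 21753 against 18098 to 19626). The same held at GV3h (20933 to 22147 against 18529 to 19290) and RiboMinus MII (19957 to 23488 against 17703 to 18004). At polyA MII and RiboMinus GV the genotypes overlapped. Counts on no gene at RiboMinus MII were 10.7% to 11.7% in cKO eggs and 13.4% to 14.3% in controls. Exosc10 was at most 8.29 CPM in any cKO oocyte and at least 43.0 CPM in any control, so the genotype labels held. Of 10 oocyte markers, all had a group mean above 5 CPM in every group except Figla in polyA MII controls. The 10 cumulus and granulosa markers summed to 65.0 to 197 CPM per oocyte, carried mostly by Cyp19a1, Kitl and Nr5a2, while Ptx3 was at 0 in every library of 8 of the 10 groups. CPM here is a count scaled to library depth, with TMM scaling within a library type, and a gene was called when its edgeR adjusted p was under 0.05. A lower level can mean less of that RNA or more of the others, and fewer molecules cannot be told apart from less total RNA. The labels say that a spike-in was added, but the gene files hold 0 spike-in rows, so every level is relative to the other genes of its library.

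Each member was called in at least 1 comparison, and the counts are given beside the share of all tested genes called there. Between genotypes, 4 of 9 members were called at polyA GV (40.4% of all tested genes), 6 at polyA GV3h (55.5%) and 6 at polyA MII (37.6%). In RiboMinus libraries 5 were called at GV (37.6%) and 4 at MII (23.7%). From GV to GV3h, 0 members were called in either genotype (0.519% of genes in controls and 0.602% in cKO oocytes). DESeq2 called 1 of them there, Camk2g in controls, and 1 member in controls (again Camk2g) and 0 in cKO oocytes had an unadjusted edgeR p under 0.05. With polyA capture, 7 of 8 tested members changed between GV and MII in controls (63.4%) and 7 of 9 in cKO oocytes (74.8%). In RiboMinus libraries the numbers were 4 of 9 in controls (30.9%) and 4 of 9 in cKO oocytes (16.1%). The genotype difference itself changed between GV and MII for 3 members in polyA libraries (14.7%) and for 2 in RiboMinus libraries (14.8%). The GV to MII change differed between library types for 8 members in controls (49.6%) and 5 in cKO oocytes (45.6%). Summing counts per female left few calls among all genes in some comparisons, with 0.00555% of tested genes called at polyA GV, 0.0149% at RiboMinus GV, 0.0722% for genotype by stage in polyA libraries and 0 of 20796 for the RiboMinus cKO stage change, so a member not called there with female sums shares this with nearly all tested genes. At polyA GV3h and MII female sums called 39.7% and 18.3%. Leaving out control female V889 gave 17.7% at polyA GV, and leaving out cKO female V1131 gave 0.631% at RiboMinus GV and 1.16% for the RiboMinus cKO stage change. No set test was made of the 9 members, which are described gene by gene.

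**Figure D1:**
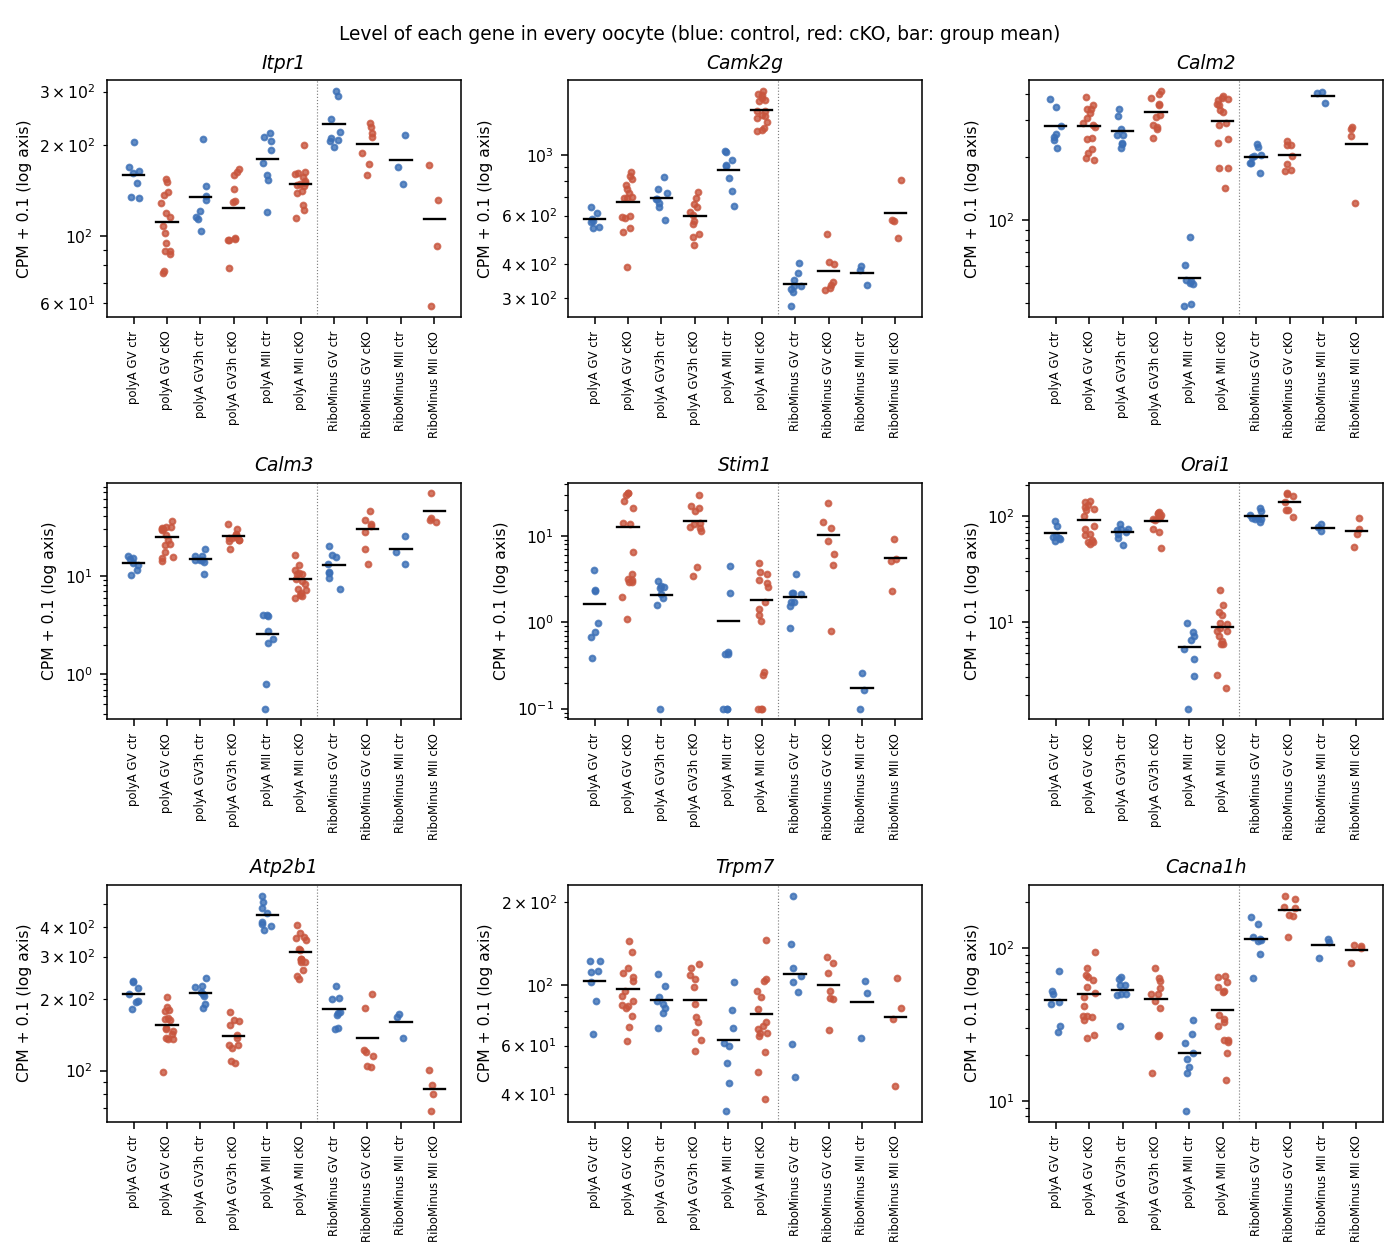
Level of each of the 9 genes in every oocyte, on a log axis of CPM + 0.1; blue points are control oocytes, red points cKO oocytes and black bars group means, with polyA groups left of the dotted line and RiboMinus groups right of it. Calm2 in polyA MII controls (38.5 to 82.8 CPM) lies below every other group, and Orai1 is low at polyA MII in both genotypes.

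Per kilobase of exon, Calm2 and Camk2g were the most abundant members in polyA GV controls, at 193 and 90.8 CPM per kb. Orai1 followed at 30.02 CPM per kb, and Atp2b1 (13.8), Trpm7 (9.12), Itpr1 (8.68), Calm3 (5.46) and Cacna1h (4.68) lay below it on the same scale. Stim1 was lowest at 0.149 CPM per kb. In polyA MII controls Camk2g came first, at 138 CPM per kb, ahead of Calm2 at 36.05. In RiboMinus MII controls the order was the reverse, with Calm2 at 268 and Camk2g at 57.5 CPM per kb.

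Calm2 (ENSMUSG00000036438, chr17:87433412-87446935 in mm10, minus strand), 1 of the calmodulin genes, fell between GV and MII in polyA control libraries, with no call in those of cKO oocytes. In controls the lowest, median and highest oocytes had 221, 259 and 380.2 CPM at GV and 38.5, 50.4 and 82.8 CPM at MII. In cKO oocytes the same 3 values were 194, 286 and 389 CPM at GV and 142, 329 and 393 CPM at MII. All 15 cKO eggs were above the highest of the 8 control eggs, and all control eggs were below every GV oocyte. Mean levels at MII were 297 ± 83.9 CPM (SD, n = 15) in cKO and 52.9 ± 14.1 CPM (n = 8) in control eggs, which was 2.44 on the log2 scale (SE 0.19, edgeR adjusted p 2.99e-10). At GV the means were 282 and 283 CPM (log2 fold change −0.03, edgeR adjusted p 0.879). The change from GV to MII was −2.44 (SE 0.17, edgeR adjusted p 3.96e-10) on the log2 scale in controls and 0.06 (SE 0.13, edgeR adjusted p 0.709) in cKO oocytes, and these changes differed by 2.52 (SE 0.23, edgeR adjusted p 4.56e-11).

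The same holds by female. Female means at polyA MII were 45.0, 55.3 and 66.1 CPM in controls and 266, 281 and 306 CPM in cKO females. With counts summed per female, the genotype difference at MII was 2.30 (SE 0.17, edgeR adjusted p 0.000194) and the difference between the stage changes 2.41 (SE 0.30, edgeR adjusted p 0.0147). Of the 3 members called in the fit over oocytes, Calm2 alone was called in that last test. At GV3h Calm2 was 0.30 higher in cKO oocytes on the log2 scale (SE 0.11, edgeR adjusted p 0.0282). That call was lost without cKO female V993 (0.29), without control female V951 (0.26) or V982 (0.24), and with female sums (0.30, edgeR adjusted p 0.0902), and was 0.46 without V995. With limma voom and the female as random block it was 0.30 and not called (limma adjusted p 0.0560).

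RiboMinus libraries gave another picture for Calm2. The 3 control eggs had 364, 406 and 410.1 CPM and the 4 cKO eggs 120.4, 252, 273 and 280.4 CPM, with no overlap and cKO eggs lower. The fitted difference was −0.71 (SE 0.27) on the log2 scale and missed the threshold (edgeR adjusted p 0.0698). In controls Calm2 rose from 201 ± 20.7 CPM (SD, n = 8) at GV to 393 ± 25.4 CPM (n = 3) at MII, by 0.97 on the log2 scale (SE 0.11, edgeR adjusted p 2.58e-06), while its polyA level fell. In cKO oocytes the RiboMinus change was 0.19 (SE 0.21, edgeR adjusted p 0.586). The polyA change minus the RiboMinus change was −3.24 (SE 0.22, edgeR adjusted p 8.32e-14) in controls and 0.11 (SE 0.27, edgeR adjusted p 0.773) in cKO oocytes. The genotype by stage term was −0.79 in RiboMinus libraries (SE 0.25, edgeR adjusted p 0.0332), opposite in sign to the polyA term. That call was lost without V1126 (−0.72), V1132 (−0.74), V1133 (−0.82) or V1166 (−0.60), and without control egg 2 (−0.76), 3 (−0.74) or 4 (−0.84), and with limma voom and the female as random block (−0.82, limma adjusted p 0.129). All RiboMinus control eggs came from 1 female, so genotype, stage and female cannot be told apart in those comparisons. The summed level of the 10 cumulus and granulosa markers was 152 to 168 CPM in the RiboMinus control eggs and 65.0 to 106 CPM in the cKO eggs, and that of the 10 oocyte markers 11716 to 12752 CPM and 7101 to 10297 CPM. Their part in the RiboMinus MII results was not tested.

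**Figure D2:**
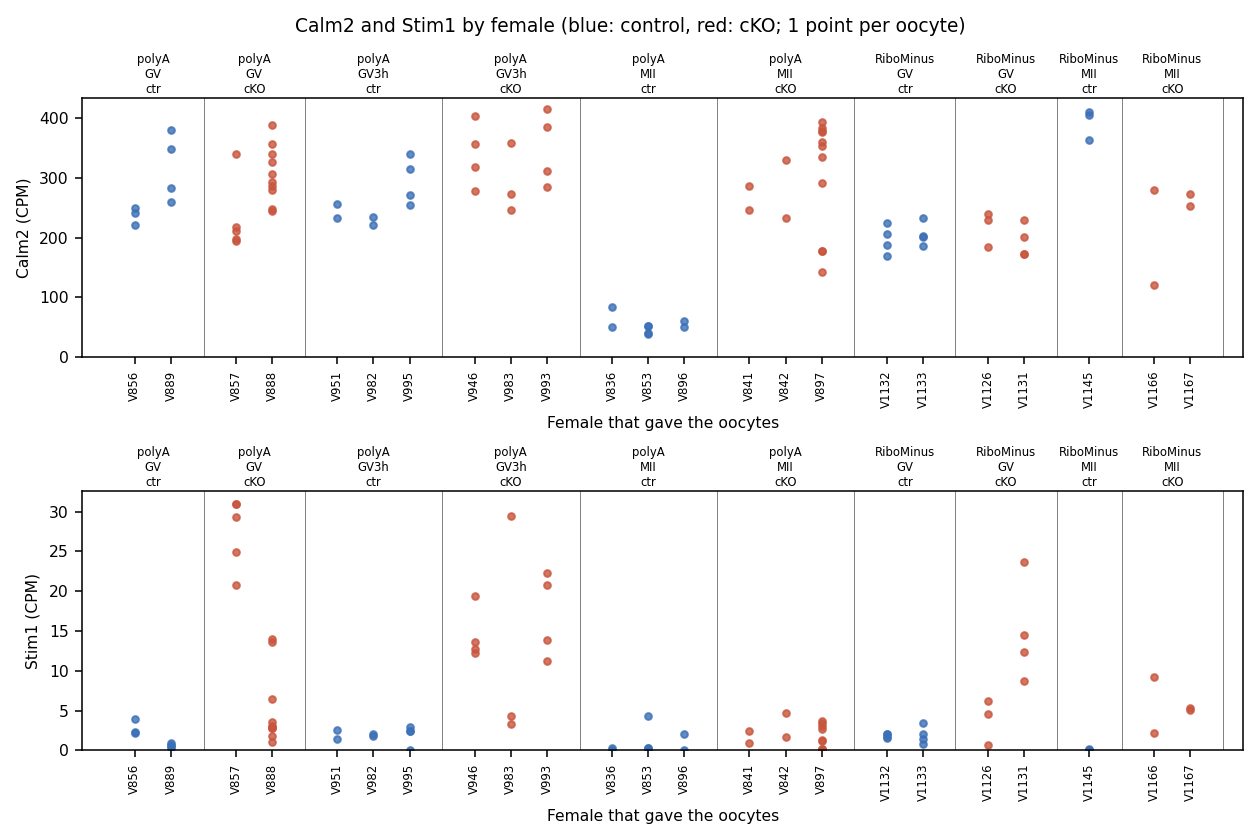
Calm2 (upper panel) and Stim1 (lower panel) in CPM for each oocyte, arranged by the female that gave it; blue points are controls and red points cKO oocytes. For Calm2 every polyA MII control female lies below every cKO female, while Stim1 in polyA GV cKO oocytes differs between V857 (20.7 to 31.0 CPM) and V888 (1.00 to 14.0 CPM), and in controls between V856 (2.22 to 3.90 CPM) and V889 (0.290 to 0.888 CPM).

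Calm3 (ENSMUSG00000019370, chr7:16915379-16924114 in mm10, minus strand), another calmodulin gene, was higher in cKO oocytes in all 5 genotype comparisons. In polyA GV oocytes the lowest, median and highest values were 9.96, 13.3 and 15.8 CPM in controls and 14.0, 25.7 and 36.1 CPM in cKO oocytes, and 12 of 15 cKO oocytes exceeded the highest control. At polyA MII they were 0.350, 2.42 and 3.91 CPM in controls and 5.90, 8.70 and 16.1 CPM in cKO eggs, with no overlap. The log2 fold changes were 0.87 (SE 0.19) at polyA GV, 0.75 (SE 0.13) at GV3h and 1.85 (SE 0.33) at MII, with edgeR adjusted p-values of 0.00091, 6.23e-05 and 6.94e-05. In RiboMinus libraries they were 1.19 (SE 0.26, edgeR adjusted p 0.0028) at GV and 1.33 (SE 0.35, edgeR adjusted p 0.0159) at MII. The polyA GV call was lost without V888 (0.29) or V889 (0.73), the RiboMinus GV call without V1131 (0.73) or V1133 (1.04), and the RiboMinus MII call without V1167 (1.05), its oocyte 1 alone (1.07) or control oocyte 2 (1.29) or 4 (1.13). With female sums the differences at GV3h (0.70) and polyA MII (1.67) were called, and those at polyA GV (0.68, edgeR adjusted p 0.384) and RiboMinus GV (1.16, edgeR adjusted p 0.135) were not. The polyA GV call was also lost with limma voom and the female as random block (0.71, limma adjusted p 0.101).

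Calm3 also fell from GV to MII in polyA libraries, by 2.44 on the log2 scale in controls (SE 0.39, edgeR adjusted p 1.99e-05) and by 1.45 in cKO oocytes (SE 0.17, edgeR adjusted p 1.99e-09). In RiboMinus libraries its change was 0.53 in controls and 0.61 in cKO oocytes, neither called (edgeR adjusted p 0.169 and 0.194). The 4 RiboMinus cKO eggs had 35.1, 37.0, 38.6 and 68.3 CPM and the 3 controls 13.1, 17.2 and 25.1 CPM. The polyA change lay below the RiboMinus change by 2.79 in controls and by 1.82 in cKO oocytes, both called (edgeR adjusted p 2.23e-05 and 1.84e-05). Without V888 the polyA fall in cKO oocytes was −0.76, and it was still called. The 2 polyA stage changes differed by 1.01 (SE 0.35, edgeR adjusted p 0.0414), a call lost without V857 (0.71), V856 (0.89), V889 (1.05), V897 (0.78) or V853 (0.95) and with female sums (0.97, edgeR adjusted p 0.462), and was 1.62 without V888. The voom fit with the female as block gave 1.30 for it, not called (limma adjusted p 0.186). Over all tested genes the median of the edgeR term was 0.10.

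Camk2g (ENSMUSG00000021820, chr14:20734875-20794088 in mm10, minus strand), the CaMKII gene that acts at egg activation, rose from GV to MII in polyA libraries, more in cKO oocytes than in controls. The lowest, median and highest polyA values in controls were 541, 575 and 646 CPM at GV and 651, 914 and 1036 CPM at MII. In cKO oocytes they were 389, 698 and 863 CPM at GV and 1223, 1446 and 1710.1 CPM at MII. All 15 cKO eggs were above the highest control egg. The GV to MII change was 0.59 (SE 0.10, edgeR adjusted p 3.98e-05) in controls and 1.10 (SE 0.09, edgeR adjusted p 7.8e-13) in cKO oocytes on the log2 scale. These differed by 0.53 (SE 0.15, edgeR adjusted p 0.00901), and at MII cKO eggs were higher by 0.68 (SE 0.09, edgeR adjusted p 7.5e-07). Over all tested genes the median of the first of these differences was 0.10. Scaled by library totals, the rise in controls was 0.21 and not called (edgeR adjusted p 0.0696).

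The MII difference for Camk2g was also present in RiboMinus libraries. The 4 cKO eggs had 495, 572, 576 and 808 CPM and the 3 control eggs 335, 378 and 391 CPM, without overlap, and the difference on the log2 scale was 0.80 (SE 0.22, edgeR adjusted p 0.0213). Leaving out control oocyte 2, 3 or 4 ended that call (0.82, 0.85 and 0.73). With female sums the polyA MII difference was 0.63 (edgeR adjusted p 0.013), and the difference between stage changes was 0.56 and not called (edgeR adjusted p 0.433). The latter was also lost without V857 (0.29), V856 (0.50), V889 (0.45), V897 (0.54) or V853 (0.44), and was 0.91 without V888, and with limma voom and the female as random block it was 0.60 and not called (limma adjusted p 0.0568). At GV3h Camk2g was 0.24 lower in cKO oocytes on the log2 scale (SE 0.09, edgeR adjusted p 0.0305), a call lost without V946 (−0.19), V993 (−0.15), V951 (−0.21), V982 (−0.24) or V995 (−0.27), in the voom fit (−0.25, limma adjusted p 0.0559) and, scaled by library totals, at −0.07. In RiboMinus cKO oocytes it rose from GV to MII by 0.71 (SE 0.18, edgeR adjusted p 0.0167), lost without V1131 (0.65) or V1166 (0.50), with female sums (0.58, edgeR adjusted p 0.319) and in the voom fit (0.67, limma adjusted p 0.0832), and in controls the change was 0.13 and not called. These 2 changes differed by 0.58, which was not called (edgeR adjusted p 0.0742). The polyA change exceeded the RiboMinus change by 0.63 in controls and 0.62 in cKO oocytes, and scaled by library totals these values were 0.15 and −0.01. The cKO call was lost without V897 (0.56) or V1167 (0.44) and with female sums (0.81, edgeR adjusted p 0.157), and the value was 0.39 without V857 and 0.95 without V888. Of the other CaMKII genes, Camk2a and Camk2b had group means under 1 CPM in every group and Camk2d at most 2.46 CPM.

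Itpr1 (ENSMUSG00000030102, chr6:108213096-108551109 in mm10, plus strand), the IP3 receptor gene, was lower in cKO oocytes in polyA libraries at GV and MII. At GV the lowest, median and highest values were 134, 161 and 204 CPM in controls and 75.4, 108 and 154 CPM in cKO oocytes. At MII they were 120.0, 183 and 219 CPM in controls and 115, 148 and 199 CPM in cKO eggs. The groups overlapped at both stages, with 11 of 15 cKO oocytes below the lowest control at GV and 1 of 15 at MII. The log2 fold changes were −0.55 (SE 0.13, edgeR adjusted p 0.00182) at GV and −0.33 (SE 0.10, edgeR adjusted p 0.0145) at MII. Neither was called with female sums (edgeR adjusted p 0.302 and 0.164), the GV call was lost without V888 (−0.24), and the MII call without V897 (−0.24) or V896 (−0.27). The GV call was also lost with limma voom and the female as random block (−0.53, limma adjusted p 0.0860). Scaled by library totals the MII value was −0.23 and not called. At RiboMinus MII the 3 control eggs had 148, 168 and 215 CPM and the 4 cKO eggs 58.4, 92.2, 131 and 172 CPM, which overlap. The RiboMinus differences of −0.22 at GV and −0.59 at MII, and that of −0.14 at polyA GV3h, were not called.

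The GV to MII change of Itpr1 differed between the 2 kinds of library. Its RiboMinus level fell by 0.40 (SE 0.15, edgeR adjusted p 0.0454) in controls and by 0.83 (SE 0.25, edgeR adjusted p 0.0353) in cKO oocytes on the log2 scale. Its polyA change was 0.17 in controls (edgeR adjusted p 0.266) and 0.40 in cKO oocytes (SE 0.10, edgeR adjusted p 0.000607), but −0.05 in cKO oocytes scaled by library totals. The difference between library types was 0.74 (SE 0.21, edgeR adjusted p 0.00448) in controls, lost without V889 (0.60), and 1.47 (SE 0.23, edgeR adjusted p 9.67e-07) in cKO oocytes. The polyA cKO call was lost without V888 (0.20), and the RiboMinus control call without V1132 (−0.37), V1133 (−0.46) or MII egg 3 (−0.29) or 4 (−0.39). The RiboMinus cKO call was lost without V1131 (−0.70), V1166 (−0.42) or either of its eggs (−0.72 and −0.59) or egg 1 of V1167 (−0.90), with −1.41 without both eggs of V1167. With female sums the polyA cKO change (0.46, edgeR adjusted p 0.149), the RiboMinus cKO change (−0.78, edgeR adjusted p 0.294) and the cKO difference between library types (1.34, edgeR adjusted p 0.0569) were not called. The RiboMinus cKO change was not called in the voom fit either (−0.90, limma adjusted p 0.0755). Scaled by library totals the difference in controls was 0.26 and not called. Of its paralogs, Itpr2 was called lower in cKO eggs at polyA MII (−0.33) and RiboMinus MII (−0.98), with values from −0.29 to 0.18 in the other 3 comparisons, not called. Itpr2 rose from GV to MII in polyA libraries by 1.68 in controls and 1.65 in cKO oocytes and in RiboMinus controls by 0.90, with −0.20 in RiboMinus cKO oocytes, not called. Itpr3 was higher in cKO oocytes at polyA GV (2.13), GV3h (1.83) and RiboMinus GV (1.63), from control means of 3.10, 4.62 and 6.60 CPM, and its values of 0.63 at polyA MII and 1.86 at RiboMinus MII were not called. Itpr1 shares 181 and 108 exon bases with the opposite-strand genes Gm44101 and Gm44040, which had 1871 and 642 counts in all against 137160 for Itpr1.

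Stim1 (ENSMUSG00000030987, chr7:102267806-102437319 in mm10, plus strand), the calcium sensor of the endoplasmic reticulum, was low in control oocytes and higher in cKO oocytes at GV, at GV3h and in RiboMinus MII eggs. At polyA GV the lowest, median and highest control values were 0.290, 0.888 and 3.90 CPM, and the cKO values 1.00, 6.42 and 31.0 CPM. At GV3h they were 0, 2.19 and 2.87 CPM in controls and 3.32, 13.7 and 29.4 CPM in cKO oocytes, without overlap. The log2 fold changes were 2.98 (SE 0.72, edgeR adjusted p 0.00215) at GV and 2.90 (SE 0.42, edgeR adjusted p 6.85e-06) at GV3h. At RiboMinus GV the lowest, median and highest values were 0.754, 1.82 and 3.47 CPM in controls and 0.689, 8.72 and 23.7 CPM in cKO oocytes, with a difference of 2.41 (SE 0.49, edgeR adjusted p 0.00219). At polyA MII they were 0, 0.327 and 4.35 CPM in controls and 0, 1.32 and 4.75 CPM in cKO eggs, not called (0.80, edgeR adjusted p 0.494). With female sums the difference was called at GV3h (2.87, edgeR adjusted p 0.000193) and not at polyA GV (3.15, edgeR adjusted p 0.209) or RiboMinus GV (2.24, edgeR adjusted p 0.145), and RiboMinus MII could not be fitted. With limma voom and the female as random block, the differences at polyA GV (2.80, limma adjusted p 0.208), RiboMinus GV (1.87, limma adjusted p 0.120) and RiboMinus MII (5.62, limma adjusted p 0.0535) were not called.

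The level varied between females in both genotypes at polyA GV. Of the cKO females, V857 averaged 27.4 CPM over 5 oocytes and V888 averaged 5.21 CPM over 10. Of the control females, V856 averaged 2.80 CPM over 3 oocytes and V889 averaged 0.606 CPM over 4, and neither pair of females overlapped. At RiboMinus GV the cKO females V1131 and V1126 averaged 14.8 and 3.78 CPM and the control females V1132 and V1133 1.83 and 1.93 CPM. Without V857 the polyA GV difference was 1.72 and still called, without control female V889 the polyA GV difference was 2.09 and not called (edgeR adjusted p 0.146), and without V1131 the RiboMinus GV difference was 1.01 and not called (edgeR adjusted p 0.368). At RiboMinus MII the 3 control eggs held 0, 1 and 3 Stim1 counts and the 4 cKO eggs had 2.18, 5.07, 5.35 and 9.19 CPM. The pooled counts were 4 of 53265266 in controls and 599 of 133307441 in cKO eggs, a ratio of 59.8 with a 95% exact counting interval of 23.2 to 220.3. This interval covers counting error only, and the edgeR adjusted p was 0.00396, while the limma voom adjusted p with the female as block was 0.0535, which ends the call.

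In control RiboMinus oocytes Stim1 fell from GV to MII (edgeR adjusted p 0.00203), with pooled levels of 1.87 CPM at GV and 0.0751 CPM at MII, a ratio of 24.8 (95% counting interval 9.57 to 92.0). In cKO oocytes the RiboMinus change was −0.88 on the log2 scale and not called, and the RiboMinus stage changes of the genotypes differed by 3.59 (SE 1.08, edgeR adjusted p 0.0264), a value that rests on those 4 control counts and was not called without V1132 (3.65), V1133 (3.56) or control egg 2 (3.49) or 3 (3.10), or in the voom fit (3.64, limma adjusted p 0.333). In polyA libraries Stim1 fell in cKO oocytes by 2.89 (SE 0.58, edgeR adjusted p 3.95e-05) to a mean of 1.69 CPM at MII, and by 1.60 without V857. In polyA controls the GV to MII change could not be tested over oocytes, since Stim1 was removed by the filter on low counts, and with female sums it was −0.91 and not called (edgeR adjusted p 0.501). The library by stage value of 3.89 in controls is likewise a fit to nearly empty libraries, and was lost without V889 (3.05), V853 (3.27), V1132 (3.92), V1133 (3.82) or control egg 2 (3.80) or 3 (3.40), and in the voom fit (2.86, limma adjusted p 0.0737). In cKO oocytes the library by stage value was −1.77 (edgeR adjusted p 0.146), and the genotype by stage value in polyA libraries −2.16 (edgeR adjusted p 0.178), neither called. Its paralog Stim2 had group means from 26.4 to 108 CPM and was lower in cKO oocytes at polyA GV (−0.84), GV3h (−0.82) and RiboMinus GV (−0.81), the direction opposite to Stim1, with −0.54 at polyA MII and −0.49 at RiboMinus MII, not called.

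Orai1 (ENSMUSG00000049686, chr5:123015074-123030456 in mm10, plus strand), the pore that Stim1 opens, had polyA levels that fell between GV and MII in both genotypes, by 12.1-fold in controls and 10.4-fold in cKO oocytes between group means, and less in RiboMinus libraries. In polyA controls the lowest, median and highest values were 58.6, 64.0 and 90.02 CPM at GV and 1.40, 6.04 and 9.70 CPM at MII. In cKO oocytes they were 55.1, 80.5 and 141 CPM at GV and 2.25, 8.14 and 19.7 CPM at MII. No MII egg reached the level of any GV oocyte of its genotype. The change was −3.60 (SE 0.29, edgeR adjusted p 2.26e-09) in controls and −3.39 (SE 0.23, edgeR adjusted p 4.8e-15) in cKO oocytes on the log2 scale, and both were called with female sums (−3.54 and −3.41).

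RiboMinus levels of Orai1 were closer between stages. The 3 control eggs had 72.1, 78.6 and 84.2 CPM and the 4 cKO eggs 50.8, 68.4, 75.5 and 96.1 CPM. Levels averaged 100.4 ± 10.4 CPM (SD, n = 8) at GV and 78.3 ± 6.05 CPM (n = 3) at MII in controls, and 135 ± 26.3 CPM (n = 7) and 72.7 ± 18.7 CPM (n = 4) in cKO oocytes. The changes were −0.36 (SE 0.13, edgeR adjusted p 0.0441) and −0.89 (SE 0.21, edgeR adjusted p 0.0129), the first lost without V1132 (−0.29) or MII egg 2 (−0.36) or 3 (−0.31) and the second without V1131 (−0.68) or V1167 (−0.86), with female sums (−0.78, edgeR adjusted p 0.217) or with limma voom and the female as random block (−0.84, limma adjusted p 0.0782). The polyA fall exceeded the RiboMinus fall by 3.08 on the log2 scale in controls (SE 0.32, edgeR adjusted p 1.03e-09) and by 2.26 in cKO oocytes (SE 0.37, edgeR adjusted p 2.55e-06). Orai1 was higher in cKO oocytes at polyA GV3h by 0.36 (SE 0.13, edgeR adjusted p 0.0198) and at RiboMinus GV by 0.42 (SE 0.12, edgeR adjusted p 0.0112). The first call was lost without V993 (0.29), V951 (0.33) or V995 (0.29), the second without V1131 (0.22) or V1133 (0.35), and both with female sums (0.28 and 0.38, edgeR adjusted p 0.152 and 0.254) and in the voom fit (0.32 and 0.40, limma adjusted p 0.0935 and 0.0689). At polyA GV (0.39), polyA MII (0.58) and RiboMinus MII (−0.05) the genotypes were not called apart. Orai1 overlaps the opposite-strand gene Gm2479 by 7 exon bases; that gene had 96839 counts in all against 69803 for Orai1, and without a stated strand setting reads near the overlap are uncertain. Of the paralogs, Orai2 had group means under 0.5 CPM in every group, and Orai3 means from 1.06 to 5.28 CPM, with 0 edgeR calls between genotypes and 1 unadjusted p under 0.05, at polyA GV.

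Atp2b1 (ENSMUSG00000019943, chr10:98914406-99026143 in mm10, plus strand), the plasma membrane calcium pump, was lower in cKO oocytes in all 5 genotype comparisons. At polyA GV3h the lowest, median and highest values were 183, 212 and 243 CPM in controls and 107, 137 and 176 CPM in cKO oocytes, without overlap. At polyA GV they were 181, 209 and 236 CPM against 98.8, 151 and 203 CPM, with 13 of 15 cKO oocytes below the lowest control. At polyA MII they were 386, 437 and 540.0 CPM against 241, 293 and 408 CPM, with 14 of 15 below. Log2 fold changes were −0.46 (SE 0.10), −0.62 (SE 0.09) and −0.57 (SE 0.09) at polyA GV, GV3h and MII, with edgeR adjusted p-values of 0.000747, 9.93e-06 and 1.66e-05. The RiboMinus values were −0.41 (SE 0.16, edgeR adjusted p 0.0466) at GV and −0.87 (SE 0.21, edgeR adjusted p 0.0122) at MII. At RiboMinus MII no values overlapped: the 4 cKO eggs had 67.8, 79.9, 86.7 and 100.6 CPM and the 3 control eggs 137, 168 and 173 CPM.

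With female sums the Atp2b1 differences at GV3h (−0.66, edgeR adjusted p 0.00265) and polyA MII (−0.57, edgeR adjusted p 0.00767) were called, and those at polyA GV (−0.48, edgeR adjusted p 0.255) and RiboMinus GV (−0.46, edgeR adjusted p 0.238) were not. The last 2 were not called with limma voom and the female as random block either (−0.46 and −0.45, limma adjusted p 0.103 and 0.0958). The polyA GV call was lost without V889 (−0.34), the RiboMinus GV call without V1131 (−0.10), V1132 (−0.46) or V1133 (−0.37), with −0.71 without V1126, and the RiboMinus MII call without control oocyte 2 (−0.80) or 4 (−0.83). From GV to MII the polyA level rose in both genotypes, by 1.09 (SE 0.10, edgeR adjusted p 1.18e-08) in controls and 0.99 (SE 0.09, edgeR adjusted p 3.97e-12) in cKO oocytes. The RiboMinus values of −0.18 in controls and −0.70 in cKO oocytes were not called (edgeR adjusted p 0.332 and 0.0536). The difference between library types was 1.44 (SE 0.17, edgeR adjusted p 1.91e-08) in controls and 1.93 (SE 0.21, edgeR adjusted p 3.41e-10) in cKO oocytes. Atp2b1 is the member whose 3′ window, printed above, holds TTTTAT, as do 13.9% of all transcripts. Any part of this motif in the polyA rise of Atp2b1 was not tested. Of its paralogs, Atp2b3 was lower in cKO oocytes in all 3 polyA comparisons (−0.74, −0.98 and −1.04) and at RiboMinus GV (−0.67), with −0.73 at RiboMinus MII, not called, Atp2b4 was lower at polyA MII (−0.44) with values from −0.14 to 0.58 elsewhere, not called, and Atp2b2 was under 1 CPM in every group mean.

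Cacna1h (ENSMUSG00000024112, chr17:25374285-25433783 in mm10, minus strand), a T-type calcium channel gene, was higher in cKO oocytes at polyA MII and RiboMinus GV. At polyA MII the lowest, median and highest values were 8.58, 19.7 and 34.2 CPM in controls and 13.8, 34.3 and 65.5 CPM in cKO eggs, and 8 of 15 cKO eggs exceeded the highest control. At RiboMinus GV they were 63.7, 115 and 161 CPM in controls and 118, 183 and 221 CPM in cKO oocytes, 6 of 7 of which exceeded the highest control. The log2 fold changes were 0.89 (SE 0.27, edgeR adjusted p 0.00971) and 0.62 (SE 0.17, edgeR adjusted p 0.0091). The polyA MII call was lost without V897 (0.84) or V853 (0.98) and with limma voom and the female as random block (0.83, limma adjusted p 0.0545), and was made with female sums (0.84, edgeR adjusted p 0.0148). The RiboMinus GV call was lost without V1131 (0.38) or V1133 (0.54), with female sums (0.55, edgeR adjusted p 0.176) and in the voom fit (0.62, limma adjusted p 0.0539). From GV to MII its level fell by 1.14 in polyA controls (SE 0.25, edgeR adjusted p 0.000485) and by 0.86 in RiboMinus cKO oocytes (SE 0.18, edgeR adjusted p 0.00832), the latter lost without V1131 (−0.61) or V1167 (−0.76) and with female sums (−0.85, edgeR adjusted p 0.189). The changes of −0.36 in polyA cKO oocytes and −0.13 in RiboMinus controls were not called (edgeR adjusted p 0.117 and 0.638), and the changes were not called different between genotypes in either library type (edgeR adjusted p 0.111 and 0.0769). The genotype differences of 0.10 at polyA GV, −0.21 at GV3h and −0.04 at RiboMinus MII were not called. The library by stage value in controls was −0.83 (edgeR adjusted p 0.0447), lost without V856 (−0.54), V896 (−0.83), V1132 (−0.88), V1133 (−0.77) or RiboMinus egg 2 (−0.75) or 4 (−0.78), and in cKO oocytes it was 0.75 and not called (edgeR adjusted p 0.0952). Its paralog Cacna1i was higher in cKO eggs at polyA MII (0.92), with values from 0.02 to 0.88 elsewhere, not called, and Cacna1g had group means of at most 1.76 CPM. Cacna1h shares 158 exon bases with the opposite-strand gene Tpsg1, which had 1019 counts in all against 74122.

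Trpm7 (ENSMUSG00000027365, chr2:126791565-126876230 in mm10, minus strand), a channel with a kinase domain that carries calcium and magnesium, was called in 0 of 5 genotype comparisons, with log2 fold changes from −0.15 to 0.27. Unadjusted edgeR p-values were at least 0.187 in all 5, and DESeq2 called 0 as well. At polyA GV the lowest, median and highest values were 66.1, 111 and 122 CPM in controls and 62.2, 91.0 and 145 CPM in cKO oocytes. At polyA MII they were 34.6, 60.5 and 102 CPM in controls and 38.2, 70.7 and 145 CPM in cKO eggs, and the groups overlapped throughout. Between GV and MII in polyA libraries it fell by 0.72 (SE 0.19, edgeR adjusted p 0.00296) in controls and by 0.32 (SE 0.14, edgeR adjusted p 0.0424) in cKO oocytes. The cKO call was lost without V857 (−0.17), V888 (−0.44), V841 (−0.28) or V897 (−0.26), and in the voom fit with the female as block (−0.35, limma adjusted p 0.221), and neither call was made with female sums (edgeR adjusted p 0.108 and 0.380). In RiboMinus libraries the changes of −0.34 and −0.38 were not called. Trpm6, its paralog, was lower in cKO oocytes at GV3h (−1.02), with values from −0.82 to −0.24 elsewhere, not called, and had group means of at most 14.1 CPM.

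**Figure D3:**
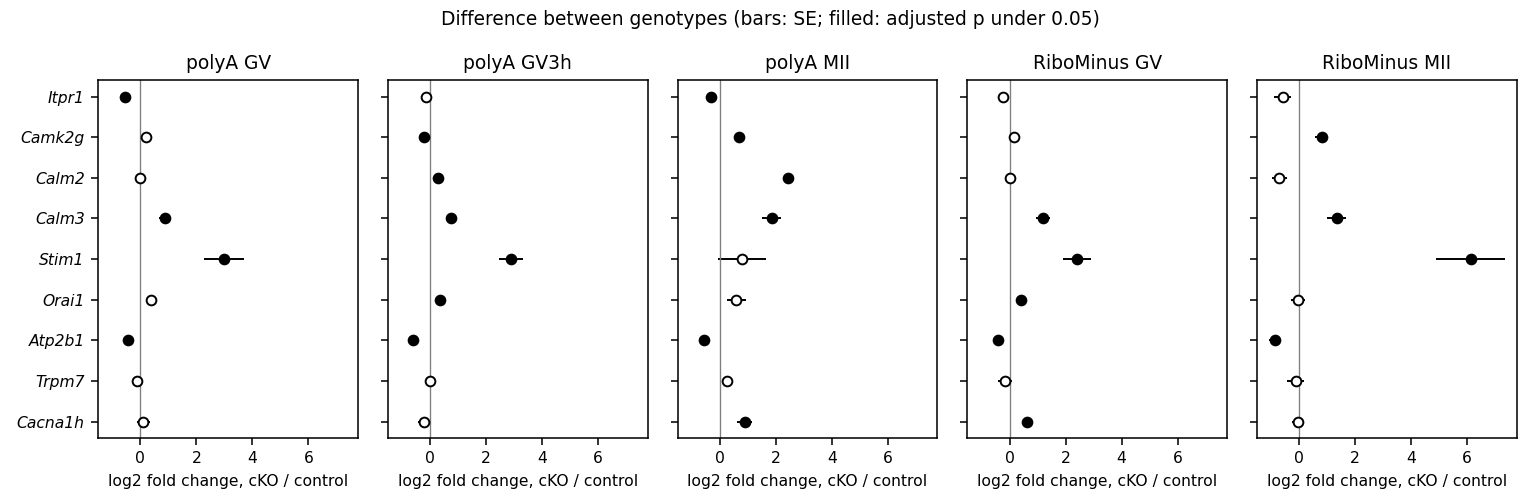
Log2 fold change of each gene between cKO and control oocytes in the 5 genotype comparisons, with bars of 1 SE and filled points for an edgeR adjusted p under 0.05. Atp2b1 is below 0 and Calm3 above 0 in all 5 panels, Calm2 reaches 2.44 at polyA MII, and the Stim1 value of 6.12 at RiboMinus MII rests on 4 counts in controls.

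Ordered by group mean within a library type, most neighbouring groups of a gene overlapped. For Calm2 the polyA order ran from GV3h cKO (330 CPM) to GV3h controls (265 CPM) over 5 groups that overlapped their neighbours, and then dropped to MII controls. For Orai1 the 4 GV and GV3h polyA groups overlapped their neighbours, as did the 2 MII groups, with a gap between them. Camk2g stood apart in polyA MII cKO eggs, and Calm3 in polyA MII controls. All 6 polyA groups of Itpr1, Stim1, Trpm7, Atp2b1 and Cacna1h overlapped their neighbours in this order.

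**Figure D4:**
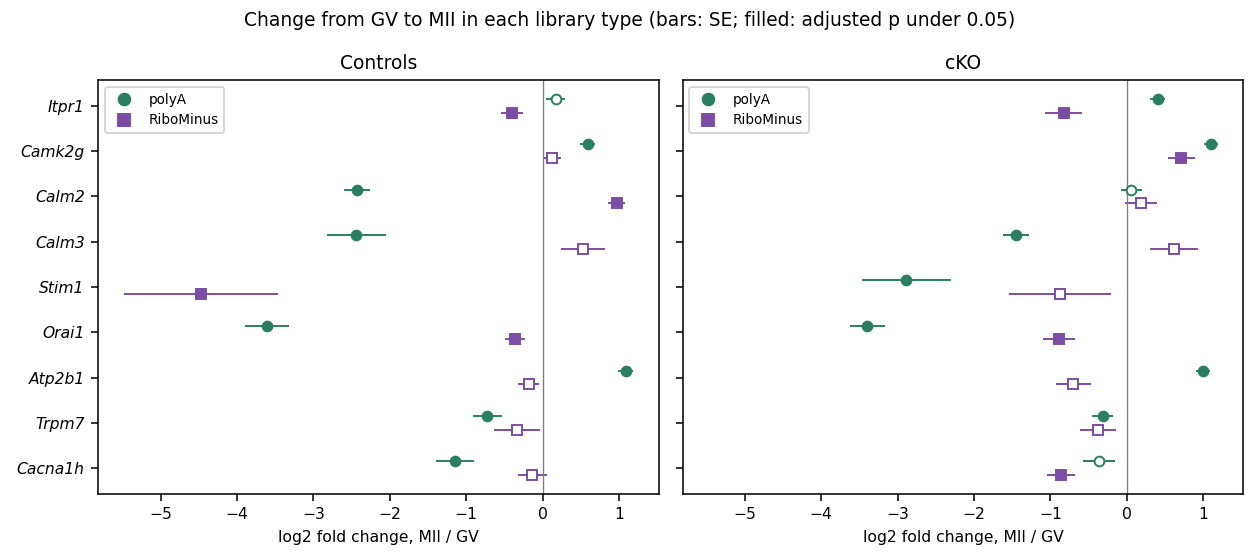
Log2 fold change from GV to MII for each gene in controls (left) and cKO oocytes (right), with polyA values as green circles, RiboMinus values as purple squares, bars of 1 SE and filled symbols for an edgeR adjusted p under 0.05. Calm2, Calm3 and Orai1 in controls lie far left in polyA libraries (−2.44, −2.44 and −3.60) and near or above 0 in RiboMinus libraries (0.97, 0.53 and −0.36), while Atp2b1 lies right only in polyA libraries; Stim1 in polyA controls was not tested.

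The rest of the pathway was counted in 6 lists of 93 genes. Between genotypes, edgeR called 20 of the 60 tested with polyA capture at GV (33.3%), 28 of 60 at GV3h (46.7%), 22 of 57 at polyA MII (38.6%), 29 of 69 at RiboMinus GV (42.0%) and 20 of 75 at RiboMinus MII (26.7%). The shares of all genes given above were 40.4%, 55.5%, 37.6%, 37.6% and 23.7%. Over all tested genes the median difference on the log2 scale was 0.06 at polyA GV, 0.03 at GV3h, 0.04 at polyA MII and 0.13 at RiboMinus MII, and under 0.01 in size at RiboMinus GV.

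Among 20 genes that make or break down IP3, 3 of 12 tested rose and 3 fell at polyA GV (median 0.10), and 2 of 10 rose and 1 fell at polyA MII (median 0.15). At GV3h 2 of 12 rose and 4 fell (median −0.43), and in RiboMinus libraries 3 of 15 rose and 3 fell at GV (median −0.25) and 3 rose and 2 fell at MII (median 0.42). Pip5k1a, a kinase that makes the lipid precursor of IP3, was higher in cKO oocytes in all 5 comparisons, by 1.51 to 2.20 on the log2 scale. Plcb4 and Plce1, both phospholipases C, were lower, Plcb4 in all 5 (−1.17 to −2.51) and Plce1 in 4 (−0.62 to −0.99), with −0.04 at polyA MII. Plcg2 fell from GV to MII in polyA controls (−1.13), polyA cKO (−1.43) and RiboMinus cKO oocytes (−0.89), with −0.14 in RiboMinus controls, not called. Pip5k1a fell in polyA controls (−1.43), polyA cKO oocytes (−1.03) and RiboMinus controls (−1.33), with −0.78 in RiboMinus cKO oocytes, not called.

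Among 10 genes of calcium release from the endoplasmic reticulum, 2 of 9 tested rose and 0 fell at polyA GV (median 0.15), and 3 rose and 2 fell at polyA MII (median 0.20). At GV3h 3 rose and 1 fell (median 0.18), and in RiboMinus libraries 3 of 9 rose and 1 fell at GV (median 0.06) and 1 of 10 rose and 1 fell at MII (median 0.35). Ahcyl1, whose protein binds IP3 receptors, fell from GV to MII in polyA cKO (−1.08), RiboMinus control (−0.45) and RiboMinus cKO oocytes (−0.59), with −0.17 in polyA controls, not called. Of the 11 store-refilling and buffer genes, 0 of 6 tested rose and 2 fell at polyA GV (median 0.26), and 2 rose and 0 fell at polyA MII (median 0.42). At GV3h 2 rose and 2 fell (median 0.23), and in RiboMinus libraries 3 of 6 rose and 2 fell at GV (median 0.45) and 2 rose and 1 fell at MII (median 0.76). Atp2a2, the pump that refills the endoplasmic reticulum, was called higher in 4 of 5 comparisons, by 0.31 to 1.38, and its value at polyA GV was 0.33 and not called. Canx, a calcium-binding chaperone, was lower in 4 of 5, by −0.23 to −1.07, with 0.01 at polyA MII, and it rose from GV to MII in polyA controls (0.42), polyA cKO oocytes (0.76) and RiboMinus controls (0.29), with −0.28 in RiboMinus cKO oocytes, not called.

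Of 17 plasma membrane genes, 8 were tested at polyA GV, of which 1 rose and 1 fell (median 0.32), and at polyA MII 1 of 7 rose and 2 fell (median −0.07). At GV3h 1 of 8 rose and 2 fell (median 0.24). In RiboMinus libraries, where more of the list passed the filter on low counts, 2 of 11 rose and 1 fell at GV (median 0.50) and 3 of 14 rose and 0 fell at MII (median 1.15), so these medians are over other sets of genes than the polyA ones. Among 12 mitochondrial calcium genes, 1 of 11 rose and 4 fell at polyA GV (median −0.41), and 1 rose and 5 fell at polyA MII (median −0.14). At GV3h 2 rose and 5 fell (median −0.31), and in RiboMinus libraries 2 of 11 rose and 4 fell at GV (median −0.40) and 0 of 12 rose and 2 fell at MII (median −0.31). Mcu, the pore of the mitochondrial uniporter, was lower in cKO oocytes at polyA GV (−0.97), GV3h (−1.12), MII (−1.05) and RiboMinus GV (−0.58), with 0.49 at RiboMinus MII, not called. Mcur1, a regulator of the uniporter, was lower in all 5 comparisons (−0.61 to −1.30). Its level rose from GV to MII in polyA controls (0.75), polyA cKO oocytes (0.97) and RiboMinus controls (0.70), with −0.04 in RiboMinus cKO oocytes, not called. Vdac2, an outer membrane channel, was lower in 4 (−0.67 to −0.95), with 0.00 at RiboMinus GV. Micu2, a gatekeeper of the uniporter, rose from GV to MII in polyA controls (0.39), polyA cKO (0.75) and RiboMinus control oocytes (0.55), with 0.25 in RiboMinus cKO oocytes, not called.

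Among 23 sensors and effectors of egg activation, 2 of 14 tested rose and 1 fell at polyA GV (median 0.17), and 1 rose and 2 fell at polyA MII (median 0.32). At GV3h 3 rose and 1 fell (median 0.14), and in RiboMinus libraries 2 of 17 rose and 3 fell at GV (median 0.03) and 5 of 18 rose and 0 fell at MII (median 0.57). Fbxo43 (Emi2), the inhibitor of the anaphase-promoting complex that holds the egg at MII and a target of CaMKII, was lower in cKO oocytes in 4 of 5 comparisons (−0.33 to −0.60), with 0.57 at RiboMinus MII, not called. From GV to MII in polyA libraries, Marcks, Ppp3ca, Rcan1 and Camk1d rose in both genotypes, by 1.32, 1.017, 1.45 and 0.91 in controls and by 1.09, 1.28, 0.92 and 1.35 in cKO oocytes. In RiboMinus libraries Marcks fell in controls (−1.91) and rose in cKO oocytes (1.64), Ppp3ca rose in controls (0.73), and Rcan1 (1.40) and Camk1d (0.71) rose in cKO oocytes, while the other 3 RiboMinus values of these genes were not called. Marcks is a protein kinase C substrate, Ppp3ca a catalytic subunit of calcineurin, Rcan1 a calcineurin regulator and Camk1d a calmodulin-dependent kinase. Plcz1, the sperm phospholipase, had a group mean of at most 0.02 CPM.

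Genes whose level most resembled each member's were read from the 64 polyA libraries among 8648 genes, as Pearson's r of log2 CPM. All these libraries share the same groups and the same strong stage difference, so the values describe the pattern and no test is given. Orai1 was most like Snx17 (r 0.963) and Wdr18 (0.956). Gm10382 was among the 2 genes most like Calm2 (r 0.945), and Hmgxb4 among the 2 most like Atp2b1 (r 0.965). Camk2g was most like Gtf2h1 (0.937) and Zc3h15 (0.929), and Calm3 most like Hist3h2a (0.936) and Ddit3 (0.922). For Itpr1 the nearest were Srrm2 (0.826) and Mtus1 (0.818), for Cacna1h Mef2d (0.756) and Lzts2 (0.726), and for Trpm7 Rbms2 (0.627) and Svopl (0.617). Stim1 was below the level minimum for this comparison.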

How the data were processed

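Single-oocyte polyA and RiboMinus libraries were analysed. The values are unnormalized read counts by mouse Ensembl gene as deposited by the authors, with a file for each library, and the rRNA files were not used here. Per the submitters' processing notes, the tools were cutadapt 2.5, FastQC 0.11.8, STAR 2.7.2a, SAMtools 1.9, HTSeq 0.9.1, R 3.5.1 and DESeq2 1.24.0, with build mm10. The annotation release, strand setting and duplicate removal are not given in the sources used here. Per the labels' protocols, polyA RNA was caught on oligo(dT) beads and amplified, and RiboMinus libraries used the Ovation Solo system. Lines naming no gene (8.43% to 17.0% of counts in polyA and 10.6% to 14.6% in RiboMinus libraries) were left out.

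Each comparison was fitted on all genes with edgeR 4.0.16 in R 4.3.3 (filterByExpr, TMM, quasi-likelihood F tests, two-sided, Benjamini-Hochberg over all tested genes), using the groups compared and no covariates. SE is the log2 fold change divided by the root of F. The edgeR fit was run on simulated counts for 2 of the comparisons, genotype at polyA GV and at RiboMinus MII, with outcomes not reported here. The oocyte was the replicate, and oocytes of 1 female are not independent, so p-values also measure differences between females, and counts were summed per female as an alternative. Other alternatives were DESeq2 1.42.0, DESeq2 size factors, library totals, no filter, limma 3.58.1 voom with the female as random block, and leaving out each female where its group kept at least 2 oocytes. Single oocytes were also left out of the RiboMinus MII genotype comparison and, chosen after seeing the data, MII control eggs out of the RiboMinus control stage, RiboMinus genotype by stage and control library by stage fits, and MII cKO eggs out of the RiboMinus cKO stage fit. Figures used matplotlib 3.10.9 and tables pandas 2.3.3 with numpy 2.4.6 in Python 3.11.15. Exon lengths, coordinates and sequences came from GENCODE M21, which may not be the authors' annotation.

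The members, the pathway lists and the tests were chosen with earlier results of these data known. The rule named all 9 members and their listed paralogs. Other pathway genes were named when called in 1 direction in at least 4 of 5 genotype or 3 of 4 GV to MII comparisons, at most 4 per list by mean absolute change. It also named the 2 genes most like each member, with a prior count of 1 and an average log2 CPM of at least 3. Some results that this rule names are not reported here.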

Additional observations from a re-analysis of the deposited data

Results flagged for a closer look

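Among 54 combinations of a gene and a group, examined for 1 oocyte far from the others, 4 stood out. Chance alone would mark about 1 in 20. The polyA cKO groups were too large for the rule and the RiboMinus MII controls too few, so these were not examined. Itpr1 in polyA GV3h controls had 1 oocyte of V982 at 209 CPM with the next highest at 146 CPM. Cacna1h in the same group had 1 oocyte of V995 at 30.9 CPM with the next lowest at 49.2 CPM. In RiboMinus MII cKO eggs, Calm3 was highest in 1 egg of V1167 at 68.3 CPM (next 38.6 CPM) and Cacna1h lowest in the other at 80.6 CPM (next 100.4 CPM).

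In the fit over oocytes, the difference between genotypes changed from GV to MII by a test of the change itself for 5 values. In polyA libraries these were 0.53 for Camk2g, 2.52 for Calm2 and 1.01 for Calm3 on the log2 scale, so that the value of cKO minus control was larger at MII than at GV. In RiboMinus libraries they were −0.79 for Calm2 and 3.59 for Stim1, the latter resting on 4 counts in control eggs. Of the 5 calls, polyA Calm2 alone was kept by the voom fit with the female as block. With female sums the Camk2g and Calm3 calls were lost, and the RiboMinus values could not be fitted. Over all tested genes the median of the polyA term was 0.10, and 0.001 with DESeq2 size factors, with which fewer members were called.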

How the results depend on the processing

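Member directions were compared for the 65 calls of the 9 genes. DESeq2 gave 64 of these the same call, size factors from DESeq2 61, testing without a low-count filter 59, library totals 54 and voom with the female as random block 43. Female sums could be fitted for 47, of which 24 were called and 23 not, with 0 reversed. Library totals reversed 2, Itpr1 from GV to MII in polyA cKO oocytes (−0.0458) and Camk2g in the library by stage test in cKO oocytes (−0.0107). Library totals also moved the median of all genes from −0.08 to −0.46 for polyA controls and from −0.17 to −0.62 for polyA cKO oocytes between GV and MII. No paired analysis was possible because oocyte numbers are nested in females and the groups compared share no female. The sample titles name no pairs of females, and females with neighbouring numbers were not fitted as blocks. At polyA GV, V857 and V856 averaged 232 and 238 CPM of Calm2, and V888 and V889 307 and 318 CPM. In the same order Itpr1 averaged 137, 178, 97.5 and 145 CPM. Calm3 (16.5, 14.3, 28.6 and 12.4 CPM) and Atp2b1 (162, 190, 152 and 225 CPM) did not move together. A fit without 1 female keeps its neighbour, and the part of this in lost calls was not tested.

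The number of called members moved by over 1.5 times in these cases, each given with the share of all tested genes called by the same fit. With female sums it was 0 at polyA GV (1 of 18004 genes), 0 at RiboMinus GV (3 of 20094), 0 for the RiboMinus cKO stage change (0 of 20796), 1 for genotype by stage in polyA libraries (13 of 18010) and 3 for library by stage in cKO oocytes (12.2%). Calls were nearly absent among all genes in the first 4, so these counts are no result about the members. With voom it was 0 at polyA GV (9.44%, against 40.4% in the fit over oocytes), 3 at GV3h (47.1%, against 55.5%), 1 at RiboMinus GV (17.8%, against 37.6%), 1 for the RiboMinus cKO stage change (4.65%, against 16.1%), and 1 and 0 for genotype by stage in polyA and RiboMinus libraries (3.53% and 4.36%, against 14.7% and 14.8%). It was 1 from GV to GV3h in controls with DESeq2 (1.16%), 1 for genotype by stage in polyA libraries with DESeq2 size factors (13.6%), 1 for the RiboMinus term without a filter (5.90%), and 5 for library by stage in controls with library totals (50.5%).

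Over the 100 fits that left out 1 female or 1 RiboMinus MII egg, 341 of 439 calls were kept, 98 lost and 0 reversed. Female V1145, the source of all RiboMinus MII control eggs, was varied only 1 egg at a time. The number of called members then ranged from 1 to 5 at polyA GV (17.7% to 50.3% of all genes), 3 to 6 at GV3h (42.5% to 61.1%), 0 to 5 at RiboMinus GV (0.631%, without V1131, to 52.7%, without V1126) and 1 to 5 at RiboMinus MII (12.6% to 23.0%). It ranged from 0 to 2 for GV to GV3h in cKO oocytes (0.228% to 11.04%), 2 to 3 for the RiboMinus stage change in controls (20.3% to 27.8%) and 0 to 5 in cKO oocytes (1.16% to 25.2%), 1 to 4 for genotype by stage in polyA (4.48% to 28.2%) and 0 to 4 in RiboMinus libraries (7.23% to 20.3%). Stim1 had 0 to 3 counts per RiboMinus MII control egg, in libraries of 16220993 to 20447150 counts on genes.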
